A study of Mus musculus with 6 samples.

Results

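The heat shock chaperones described here are 10 genes, Hspa1a, Hspa1b, Hspa8, Hsph1, Hspb1, Hsp90aa1, Dnajb1, Hspd1, Hspe1 and Bag3, taken by gene symbol from a table of 15302 genes, in which 10 of 10 were found. They were measured by RNA sequencing in 3 kidney samples of Tsc1-KO mice (replicates 4, 5 and 6) and 3 of wild-type (WT) mice (replicates 1, 2 and 3), all aged 45 days. The Tsc1-KO mice carried the genotype Tsc1f/f/Aqp2 Cre, in which Cre under the Aqp2 promoter removes Tsc1 from principal cells of the collecting duct, and the WT mice are labelled C57BL/6. The question put to these libraries was how the RNA of cystic Tsc1-KO kidneys differs from that of age-matched WT kidneys. Whether the WT mice were littermates is not stated, and what the Cre transgene or strain background may add cannot be told apart from what Tsc1 loss adds. The RNA came from snap-frozen kidney as a whole, in which other cells keep Tsc1, and fewer cells of a type and less RNA per cell cannot be told apart.

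Heat shock proteins are chaperones that bind unfolded or partly folded proteins and help them to fold, or hold them until they can. Hsp70 proteins work with J proteins, which deliver clients and start ATP hydrolysis, and with nucleotide exchange factors, which let clients go, while Hsp90 takes over clients such as kinases and steroid receptors. Heat and other stresses that unfold proteins activate the transcription factor Hsf1, which binds inverted repeats of the bases GAA, called heat shock elements, before many of these genes. In the kidney, heat shock proteins are known to be induced by ischemia, toxins and the high salt and urea of the medulla.

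Heat shock elements are printed here because they are the sequence through which these genes are known to be induced together. RefSeq promoter windows of 300 bases around a transcription start (mouse build GRCm38.p6) were at hand for 8 of the 10 genes, in 11 windows, but not for Hspa8 and Hsp90aa1. A pair of repeat units was searched as GAANNTTC or TTCNNGAA, each its own reverse complement, so that both strands were read. This pair was found in windows of 7 of the 8 genes and in 15.1% of 32851 windows of all genes. A run of 3 units, GAANNTTCNNGAA or TTCNNGAANNTTC, stood in windows of Hspd1, Hspe1 and Hsph1 and in those of 0.662% of all genes (0.603% of all windows). The shorter motif lies within the longer one, and a match is a description of letters, not a shown binding site. The windows of Dnajb1 held neither, and that of Bag3, not printed, held a pair that begins 43 bases after the start. Capitals mark the repeat units in the following sequences.

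The windows of Hspa1a and Hspa1b were identical at 296 of 300 positions. The 100 bases shown, from chr17:34972207-34972306 for Hspa1a and chr17:34959289-34959388 for Hspa1b, both on the minus strand, are the same in both genes, with the element 104 bases before the start.
Hspa1a: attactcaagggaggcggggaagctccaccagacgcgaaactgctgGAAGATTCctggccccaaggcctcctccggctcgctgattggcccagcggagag
Hspa1b: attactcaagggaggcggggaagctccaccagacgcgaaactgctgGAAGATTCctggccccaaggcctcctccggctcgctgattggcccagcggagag

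Hspd1 and Hspe1 lie head to head on chromosome 1 with 215 bases between their starts, and their windows share 285 of 300 bases. The same run of repeat units is read on the minus strand for Hspd1 (chr1:55088033-55088092) and on the plus strand for Hspe1 (chr1:55088038-55088097).
Hspd1: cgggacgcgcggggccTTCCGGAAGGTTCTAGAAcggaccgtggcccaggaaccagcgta
Hspe1: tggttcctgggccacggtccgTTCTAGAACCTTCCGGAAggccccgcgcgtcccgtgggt

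Hspb1 (chr5:135887789-135887848, plus strand) had elements 117 and 97 bases before its start. Hsph1 had one 33 bases before a start (chr5:149636352-149636386, minus strand) and a run of 3 units that begins 37 bases after it (chr5:149636287-149636310, minus strand).
Hspb1: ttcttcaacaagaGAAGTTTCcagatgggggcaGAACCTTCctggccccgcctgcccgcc
Hsph1, before the start: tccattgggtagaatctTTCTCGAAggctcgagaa
Hsph1, after the start: atgctgcagaTTCTGGAAAGTTCt

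Reads in the listed genes numbered 19568856 to 24647430 in Tsc1-KO libraries and 21604453 to 22450574 in WT libraries. Levels are given in FPKM, fragments per kilobase of transcript relative to the mapped fragments of the library. They are scaled for transcript length and so can be compared between genes. All genes that averaged 0.5 FPKM or more, 13230 with the 10 chaperones among them, were tested on log2(FPKM + 0.1) with limma, and a gene was called at an adjusted p under 0.05. Fold changes are Tsc1-KO over WT on that scale. Values of single libraries are given in the order of their replicate numbers, 4, 5 and 6 for Tsc1-KO and 1, 2 and 3 for WT kidneys. Markers of proximal tubule were abundant in every library (Kap, an androgen-dependent proximal tubule gene, was at 26818 to 31802 FPKM in Tsc1-KO kidneys and 26957 to 38369 FPKM in WT kidneys). Tsc1 was at 7.61 to 8.23 FPKM in Tsc1-KO kidneys and 7.49 to 8.91 FPKM in WT kidneys, which overlap. In the chaperones WT replicate 3 differed from WT replicates 1 and 2, so results are given with and without it. Since it was singled out by the levels of these same genes, their calls without it follow in part from that choice and are a description, not a test. It also differed in clock genes, which were chosen after their values were seen: Dbp was at 31.8 to 43.1 FPKM in Tsc1-KO libraries, and at 45.4, 40.7 and 8.77 FPKM in WT replicates 1, 2 and 3. H2-Ea-ps, a pseudogene of the major histocompatibility complex also named after its values were seen, was listed at 0 in each Tsc1-KO library, and at 20.3, 27.1 and 0.532 FPKM in WT replicates 1, 2 and 3 (adjusted p = 0.0749). All 3 WT samples carry the same genotype label, and whether WT replicate 3 differs from the others in origin or collection was not tested.

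The chaperones made up 0.819%, 0.805% and 0.575% of the reads of Tsc1-KO replicates 4, 5 and 6, against 0.400%, 0.403% and 0.709% in WT replicates 1, 2 and 3. WT replicate 3 thus lay above Tsc1-KO replicate 6, and the groups overlapped. Most of these reads were of Hspa8, as 106271 of 175170 in Tsc1-KO replicate 4 and 81986 of 153118 in WT replicate 3, so these shares mainly follow that gene. Of the 10 genes, Hspb1 alone was called, as higher in Tsc1-KO kidneys. Over all genes tested, limma called 1.87% as higher and 2.11% in either direction. A test on the reads with limma-voom also called Hspb1 alone of the 10, and 1.63% of all genes as higher. Hspb1 was also the only one of the 10 with every Tsc1-KO library above every WT library, as 17.3% of all genes had. The median log2 fold change of the 10 was 0.62, against 0.04 for all genes tested, and 10 of 10 were positive, or 9 of 10 after median-of-ratios scaling. Of the 13230 genes tested, 7916 were positive, or 6544 after that scaling.

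**Figure D1:**
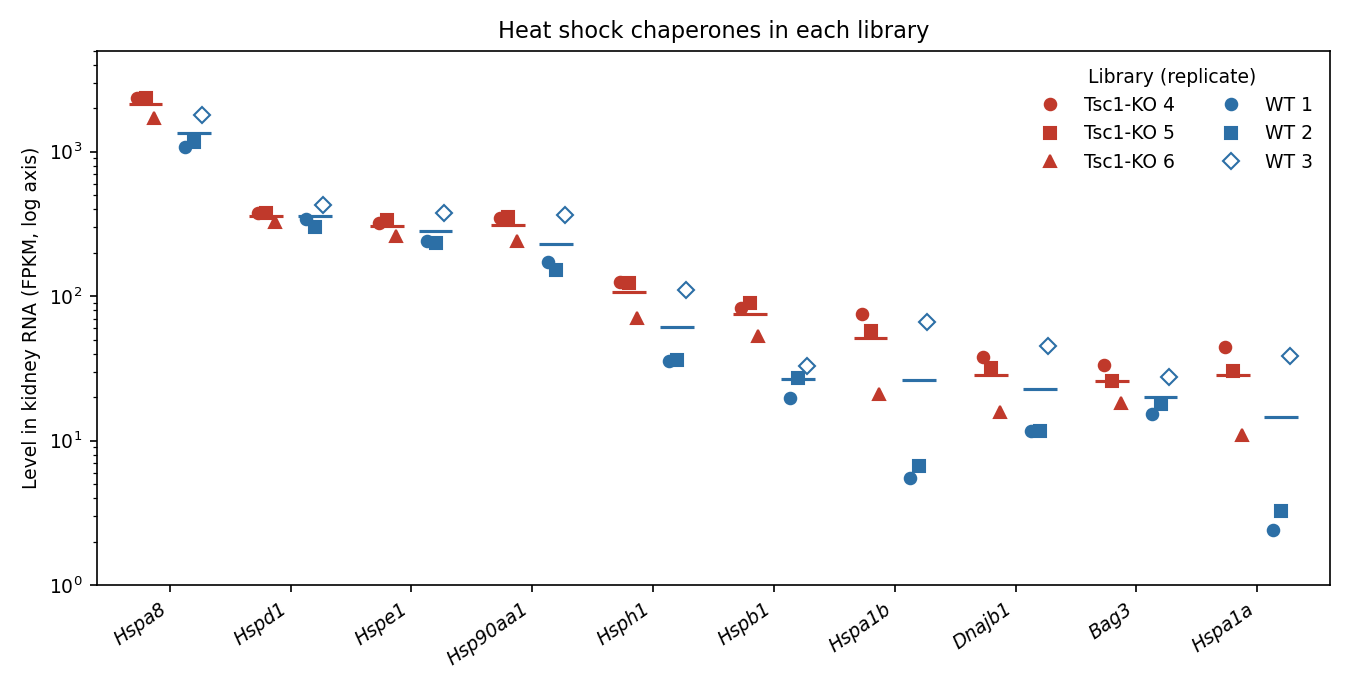
Level of each of the 10 chaperone genes in each library (FPKM, log axis), with Tsc1-KO libraries in red left of WT libraries in blue, genes ordered by mean level and short lines at the group means. WT replicate 3 (open diamonds) lies above WT replicates 1 and 2 for every gene. It does so by much for Hspa1a (38.3 FPKM against 2.40 and 3.26 FPKM) and by little for Hspd1 (427 FPKM against 341 and 302 FPKM). The groups are apart only for Hspb1.

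Hspb1 encodes Hsp27 (Hsp25 in the mouse), a small heat shock protein that holds unfolded proteins without ATP and binds actin. It was at 83.0, 89.3 and 53.1 FPKM in Tsc1-KO kidneys, against 19.7, 27.3 and 32.9 FPKM in WT kidneys. The lowest Tsc1-KO library lay above the highest WT library, with means of 75.1 ± 19.3 FPKM in Tsc1-KO and 26.6 ± 6.62 FPKM in WT kidneys (SD, n = 3 each). Hspb1 rose in Tsc1-KO kidneys by a log2 fold change of 1.49 (95% interval 0.90 to 2.07, adjusted p = 0.0361 from limma). The direction held in every alternative run. The call did not hold when any library but WT replicate 3 was left out (adjusted p = 0.0607 to 0.119) or without a variance trend (adjusted p = 0.0611). In the fits with one of those libraries left out, 0 to 184 of the 13230 genes were called, against 279 with all libraries, and without WT replicate 3 the log2 fold change was 1.65 (adjusted p = 0.0183). Of the 50-base stretches of the longest Hspb1 transcript, 51.6% also occur in the pseudogene Hsp25-ps1, so the counting could have split or lost some reads.

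Hspa1a and Hspa1b are neighbouring copies that encode the stress-inducible Hsp70, which is scarce in most unstressed cells. Hspa1a was at 44.6, 30.4 and 10.99 FPKM in Tsc1-KO kidneys, against 2.40, 3.26 and 38.3 FPKM in WT kidneys. Hspa1b was at 75.5, 57.7 and 20.9 FPKM in Tsc1-KO kidneys, against 5.51, 6.69 and 66.4 FPKM in WT kidneys. For both genes WT replicate 3 was the second highest library and WT replicates 1 and 2 were the lowest.

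The log2 fold change of Hspa1a was 1.85 (95% interval -0.65 to 4.35, adjusted p = 0.394) and that of Hspa1b was 1.73 (95% interval -0.58 to 4.03, adjusted p = 0.387), so neither was called. The highest WT library was 15.9 times the lowest for Hspa1a and 12.1 times for Hspa1b. A ratio above 10 was found in 53 of the 13230 genes tested, 0.401%, not counting genes at 0 in a WT library. Without WT replicate 3 both were called, at log2 fold changes of 3.09 for Hspa1a and 2.87 for Hspa1b (adjusted p = 0.0281 each). Limma-voom without it called Hspa1b (adjusted p = 0.0486) but not Hspa1a (adjusted p = 0.0838). Their values are not independent of each other, since 58.8% of the 50-base stretches of the Hspa1a transcript occur in Hspa1b.

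Hspa8 encodes Hsc70, the constitutive Hsp70 of the cytosol, and was the most abundant of the 10 in every library. It was at 2361, 2343 and 1707 FPKM in Tsc1-KO kidneys, against 1084, 1158 and 1803 FPKM in WT kidneys. Only WT replicate 3 overlapped with the Tsc1-KO libraries, where it lay above Tsc1-KO replicate 6. The log2 fold change of Hspa8 was 0.69 (95% interval 0.16 to 1.21), with an unadjusted p of 0.017 from limma that did not pass the adjustment (0.164). Without WT replicate 3 it was called at 0.92 (adjusted p = 0.0251). Of its 50-base stretches 73.2% occur in other genes, mainly the copy Gm15459, so its level is uncertain.

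Hsph1 encodes Hsp110, which acts as a nucleotide exchange factor of Hsp70 in the dissolving of aggregates. It was at 126, 123 and 70.5 FPKM in Tsc1-KO kidneys, against 35.6, 36.2 and 111 FPKM in WT kidneys. Its log2 fold change was 0.98 (95% interval -0.12 to 2.07, adjusted p = 0.312), and 1.52 without WT replicate 3 (adjusted p = 0.0224). None of its 50-base stretches occurs in another annotated gene, so the displacement of WT replicate 3 was also seen in a gene without near copies.

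Hsp90aa1 encodes the stress-inducible cytosolic Hsp90. It was at 349, 351 and 239 FPKM in Tsc1-KO kidneys, against 171, 151 and 365 FPKM in WT kidneys, so that a WT library was the highest of the 6. The log2 fold change was 0.55 (95% interval -0.25 to 1.34, adjusted p = 0.433), and 0.94 without WT replicate 3 (adjusted p = 0.0318). It shares 58.5% of its 50-base stretches with other genes.

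Dnajb1 encodes Hsp40, an inducible J protein partner of Hsp70. It was at 37.6, 31.6 and 15.8 FPKM in Tsc1-KO kidneys, against 11.6, 11.7 and 45.2 FPKM in WT kidneys. WT replicate 3 was again the highest, and the Tsc1-KO libraries lay between it and the other WT libraries. Dnajb1 was not called, at a log2 fold change of 0.54 (95% interval -0.83 to 1.90, adjusted p = 0.666), nor without WT replicate 3, at 1.19 (adjusted p = 0.0849).

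Bag3, a cochaperone that links Hsp70 to small heat shock proteins and to autophagy, was at 33.4, 25.8 and 18.2 FPKM in Tsc1-KO kidneys, against 15.3, 17.8 and 27.4 FPKM in WT kidneys. Its log2 fold change was 0.35 (95% interval -0.30 to 1.005, adjusted p = 0.539) and 0.59 without WT replicate 3 (adjusted p = 0.168). The groups overlapped through WT replicate 3 alone.

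Hspd1 and Hspe1 encode Hsp60 and Hsp10, the barrel and the lid of the mitochondrial chaperonin. Hspd1 was at 375, 379 and 329 FPKM in Tsc1-KO kidneys, against 341, 302 and 427 FPKM in WT kidneys. Hspe1 was at 321, 339 and 263 FPKM in Tsc1-KO kidneys, against 242, 234 and 377 FPKM in WT kidneys. Both were highest in WT replicate 3 and their highest WT library was only 1.41 times (Hspd1) and 1.61 times (Hspe1) the lowest. Their log2 fold changes were 0.03 for Hspd1 (95% interval -0.28 to 0.34, adjusted p = 0.928) and 0.14 for Hspe1 (95% interval -0.32 to 0.60, adjusted p = 0.748). The sign for Hspd1 turned in 5 alternatives, median-of-ratios scaling among them. Neither was called without WT replicate 3, at 0.17 for Hspd1 (adjusted p = 0.274) and 0.36 for Hspe1 (adjusted p = 0.0992). Of their 50-base stretches, 44.8% for Hspd1 and 36.1% for Hspe1 occur in other genes.

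**Figure D2:**
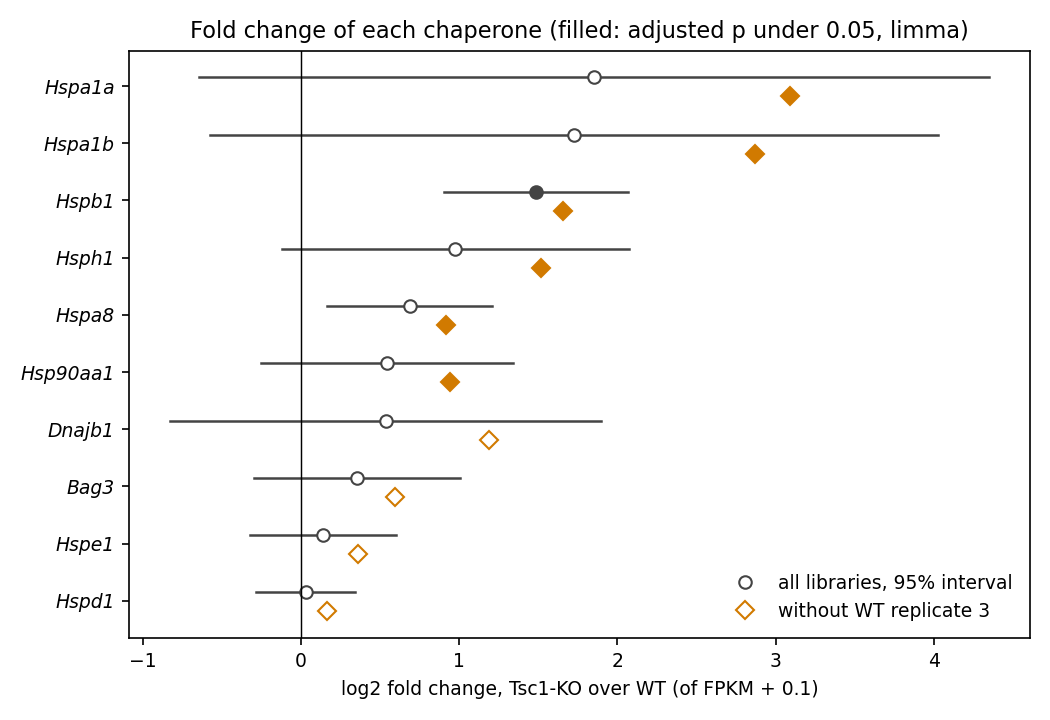
Log2 fold change of each chaperone gene, Tsc1-KO over WT, from limma with all 6 libraries (circles, with 95% intervals as lines) and without WT replicate 3 (diamonds), filled where the adjusted p was under 0.05. Hspb1 is filled in both fits, and Hspa1a, Hspa1b, Hspa8, Hsph1 and Hsp90aa1 are filled only in the fit without WT replicate 3, the largest being 3.09 for Hspa1a.

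In Tsc1-KO kidneys the mean levels ran from Hspa8 (2137 FPKM) over Hspd1 (361 FPKM), Hsp90aa1 (313 FPKM), Hspe1 (308 FPKM), Hsph1 (107 FPKM), Hspb1 (75.1 FPKM), Hspa1b (51.4 FPKM) and Hspa1a (28.7 FPKM) to Dnajb1 (28.3 FPKM) and Bag3 (25.8 FPKM). In WT kidneys Hspa8 (1348 FPKM) was again the first and Hspa1a (14.6 FPKM) the last. The ranges of neighbours overlapped in Tsc1-KO kidneys except between Hspa8 and Hspd1 and between Hspe1 and Hsph1. In WT kidneys the range of Hspa1a, 2.40 to 38.3 FPKM, overlapped with those of Bag3, Dnajb1, Hspb1, Hspa1b and Hsph1.

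The order of libraries was nearly the same from gene to gene. Tsc1-KO replicates 4 and 5 were among the 3 highest libraries for 10 of 10 genes, and WT replicate 3 for 9 of 10, with Hspb1 the exception. WT replicate 2 was among the lowest pair for 10 of 10 genes, and WT replicate 1 for 9 of 10, with Hspd1 the exception. WT replicates 1 and 2 both lay below the other 4 libraries for 9 of the 10, against 2305 of the 13230 genes tested, 17.4%, a pattern chosen after the values were seen. With WT replicate 3 left out, limma called 6 of the 10, all higher in Tsc1-KO kidneys, and 5.36% of all genes as higher and 8.38% in either direction. As the library was chosen for being high in these genes, nothing is read from the difference between these shares. Limma-voom without it called 5 of the 10 and 4.91% of all genes as higher, and the gene it did not call was Hspa1a. With any other library left out limma called 0 of the 10, but few genes of any kind were called in those fits. The share of all genes called was 0.786%, 0.181% and 0% without Tsc1-KO replicates 4, 5 and 6, and 0.242% and 1.39% without WT replicates 1 and 2.

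The other chaperone and heat-responsive genes were taken from 9 lists of 90 genes, of which 88 were in the table and 87 were tested. Limma called 0 of the 87, against 2.11% of all genes. Before adjustment 21 had a p under 0.05, against 19.2% of all genes. Limma-voom called 0 as well, with 13 under 0.05 before adjustment, against 19.1% of all genes. Their log2 fold changes were positive for 65 and their median was 0.09, against 7916 of the 13230 genes tested and 0.04. After median-of-ratios scaling 54 were positive, with a median of 0.05. Every Tsc1-KO library lay above every WT library for 17 of the 87, against 17.3% of all genes. Without WT replicate 3, limma called 16 higher and 0 lower, and limma-voom 11 higher and 1 lower. Of all genes, these fits called 5.36% and 4.91% as higher.

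Of 14 other Hsp90 and cochaperone genes tested, 14 were positive, with a median log2 fold change of 0.35. Without WT replicate 3, limma called 7 as higher and 0 as lower, against 5.36% of all genes as higher. Hsp90ab1, the constitutive cytosolic Hsp90, was at 828, 851 and 634 FPKM in Tsc1-KO kidneys, against 475, 482 and 793 FPKM in WT kidneys (log2 fold change 0.43, adjusted p = 0.337). Fkbp5, an Hsp90 cochaperone of the glucocorticoid receptor that glucocorticoids induce, had the smallest p of the list. It was at 69.5, 47.8 and 66.6 FPKM in Tsc1-KO kidneys, against 30.6, 33.3 and 43.1 FPKM in WT kidneys (log2 fold change 0.77, adjusted p = 0.083). Every Tsc1-KO library of Fkbp5 lay above every WT library, as for 17.3% of all genes. Its lowest Tsc1-KO library was replicate 5, where for each of the 10 chaperones it was replicate 6.

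Of the 15 other heat-responsive genes, some of them also in the other lists, 15 were positive with a median of 0.43. Without WT replicate 3, limma called 8 as higher and 0 as lower, against the same 5.36% of all genes as higher. Serpinh1, which encodes the collagen chaperone Hsp47, was at 81.1, 78.3 and 67.6 FPKM in Tsc1-KO kidneys, against 28.1, 33.7 and 52.7 FPKM in WT kidneys. Every Tsc1-KO library of Serpinh1 lay above every WT library, as for 17.3% of all genes. Its log2 fold change was 1.03 (adjusted p = 0.0707), and without WT replicate 3 it was called at 1.29 (adjusted p = 0.00546). Dnaja1, a J protein of the cytosol, was at 262, 241 and 163 FPKM in Tsc1-KO kidneys, against 127, 109 and 246 FPKM in WT kidneys (log2 fold change 0.53, adjusted p = 0.421).

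The other 8 Hsp70 and Hsp110 genes had a median of 0.11 with 8 positive, Hspa2, abundant in testis, at 0.38 (adjusted p = 0.259) having the smallest p. The 14 other J proteins tested had a median of 0.09 with 10 positive, the smallest p belonging to Dnajc9, a histone chaperone, at 0.22 (adjusted p = 0.175). The 6 other small heat shock proteins tested had a median of 0.31 with 4 positive. Among them Hspb7, best known in the heart, was at 2.58, 2.25 and 2.39 FPKM in Tsc1-KO kidneys, against 1.63, 1.40 and 1.32 FPKM in WT kidneys (log2 fold change 0.70, adjusted p = 0.0509). Every Tsc1-KO library of Hspb7 lay above every WT library, as for 17.3% of all genes, and WT replicate 3 was its lowest library. The 8 nucleotide exchange factors and Hsc70 helpers had a median of 0.10 with 7 positive, the smallest p belonging to Bag4, an Hsc70 cochaperone, at 0.28 (adjusted p = 0.127).

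The 14 subunits of the TRiC chaperonin and prefoldin, which fold actin and tubulin, had a median of 0.09 with 11 positive, the smallest p belonging to Cct4 at 0.18 (adjusted p = 0.194). The 14 other mitochondrial chaperones and proteases had a median of -0.07, with 4 positive and 10 negative. Of them 0 were called with or without WT replicate 3, against 2.11% and 8.38% of all genes. The mitochondrial Hsp70, Hspa9, was at 283, 288 and 283 FPKM in Tsc1-KO kidneys, against 318, 321 and 318 FPKM in WT kidneys (log2 fold change -0.17, adjusted p = 0.139). Its libraries lay close together within each group and WT replicate 3 did not stand apart. Of the heat shock factors and their binding proteins, 5 were tested, with a median of 0.09. Hsf1 itself was at 9.63, 10.9 and 9.74 FPKM in Tsc1-KO kidneys, against 8.01, 8.92 and 10.1 FPKM in WT kidneys (log2 fold change 0.17, adjusted p = 0.433), a gene named after its values were seen. The smallest p of that list belonged to Hsbp1l1, at 0.48 (adjusted p = 0.0965).

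**Figure D3:**
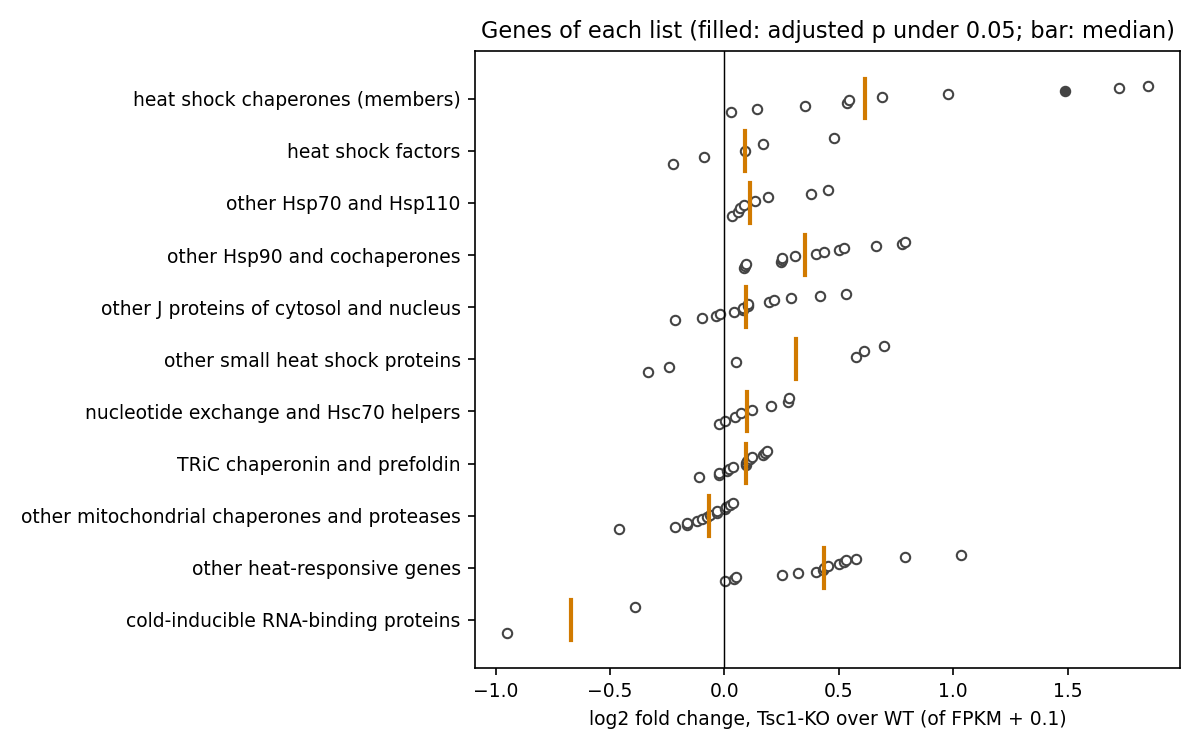
Log2 fold change, Tsc1-KO over WT, of each gene of the chaperone and cold-inducible lists, 1 circle a gene, filled where the adjusted p from limma was under 0.05, with the list's median as a bar. The 10 chaperones have the highest median of the lists shown, 0.62, and Hspb1 is the only filled circle, while the mitochondrial list centres near 0 at -0.07 and both cold-inducible genes are negative.

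The RNA-binding proteins Cirbp and Rbm3, which are induced by mild cold and fall with heat, had negative fold changes. Cirbp was at 12.6, 12.8 and 17.9 FPKM in Tsc1-KO kidneys, against 34.2, 33.7 and 18.2 FPKM in WT kidneys. WT replicate 3 and Tsc1-KO replicate 6 were thus nearly level, between the other libraries. The log2 fold change of Cirbp was -0.95 (95% interval -1.57 to -0.32, adjusted p = 0.122), and -1.25 without WT replicate 3 (adjusted p = 0.0125). Rbm3, named after its values were seen, was at 20.1, 21.5 and 17.5 FPKM in Tsc1-KO kidneys, against 25.9, 32.4 and 20.4 FPKM in WT kidneys (log2 fold change -0.39, adjusted p = 0.269). Both were called as lower without WT replicate 3, as were 400 of the 13230 genes tested.

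Ratios within a library do not depend on how the library was scaled, and 7 pairs of chaperones were compared by an exact permutation test, 2-sided, for which 3 libraries against 3 allow no p below 0.1. Hspb1 over Hspb8, another small heat shock protein, was 23.4, 25.2 and 18.1 in Tsc1-KO kidneys, against 11.1, 14.1 and 10.7 in WT kidneys. This was the only pair without overlap (difference of log2 ratios 0.89, exact permutation p = 0.1, adjusted over the 7 pairs 0.56). The inducible Hsp70 genes over constitutive Hspa8 came to 0.0509, 0.0376 and 0.0187 in Tsc1-KO kidneys, against 0.00730, 0.00859 and 0.0580 in WT kidneys. The difference of log2 ratios was 1.10 (exact permutation p = 0.4), with the highest ratio in a WT library. Hsph1 over Hspa4, its constitutive relative, was 2.33, 2.22 and 1.29 in Tsc1-KO kidneys, against 0.758, 0.831 and 2.05 in WT kidneys (difference of log2 ratios 0.79, exact permutation p = 0.2). The remaining pairs overlapped, with differences of log2 ratios of 0.11 for Hsp90aa1 over Hsp90ab1, 0.01 for Dnajb1 over Dnaja1, -0.11 for Hspd1 over Hspe1 and 0.19 for Hspd1 over Hspa9. Their exact permutation p lay between 0.4 and 1, and after adjustment no pair was below 0.56. Without WT replicate 3, 6 of the 7 pairs did not overlap, and without Tsc1-KO replicate 6 it was 2. Since WT replicate 3 was singled out by the levels of genes in these pairs, nothing is read from the 6.

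The genes whose levels over the 6 libraries were most like the mean profile of Hspa1a and Hspa1b, by the root mean square difference of centred log2 levels, were Gm5820 (0.549), Cox8b (0.596), Pttg1 (0.623), Slc36a2 (0.647) and Nlrc4 (0.674). Among the 10 chaperones the nearest were Hsph1 at 0.836 and Dnajb1 at 0.858, and the farthest was Hspd1 at 1.48. Cox8b, a subunit of cytochrome c oxidase of muscle and brown fat, was at 19.4, 6.90 and 3.91 FPKM in Tsc1-KO kidneys, against 1.48, 2.70 and 11.2 FPKM in WT kidneys. Pttg1, which encodes securin, was at 11.1, 10.5 and 2.93 FPKM in Tsc1-KO kidneys, against 2.28, 1.88 and 19.9 FPKM in WT kidneys. Gm5820, Slc36a2 and Nlrc4 lay at no more than 2.07, 1.15 and 2.21 FPKM in any library, and Slc36a2 at 0 in WT replicate 1. Their likeness on the log scale thus depends on the 0.1 FPKM added. None of the 5 was called.

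Brown fat genes were listed after their values were seen, and each of the 4 was highest in Tsc1-KO replicates 4 and 5 and WT replicate 3, as were 9 of the 10 chaperones. Ucp1, the uncoupling protein that defines brown fat, was at 13.6, 3.85 and 1.23 FPKM in Tsc1-KO kidneys, against 0.191, 0.163 and 8.58 FPKM in WT kidneys. Cidea, a lipid droplet protein of brown fat, was at 5.70, 2.63 and 0.558 FPKM in Tsc1-KO kidneys, against 0.115, 0.765 and 5.57 FPKM in WT kidneys. Adipoq, the adipocyte hormone adiponectin, was at 2.998, 2.65 and 0.263 FPKM in Tsc1-KO kidneys, against 0.0726, 1.27 and 3.72 FPKM in WT kidneys. In Cidea and Adipoq Tsc1-KO replicate 6 lay below WT replicate 2. In Ucp1 and Cox8b it lay above it, as in all 10 chaperones, though in Bag3 only at 18.2 against 17.8 FPKM. The sum of the 4 genes of this list (Ucp1, Cidea, Cox8b and Adipoq) ranged from 5.97 to 41.7 FPKM in Tsc1-KO and from 1.86 to 29.1 FPKM in WT libraries, with 0 of the 4 at 0 in any library and 0 called. Adipoq is not particular to brown fat and is also among the 4 adipose markers, so these lists overlap. Fabp4, the adipose marker with the smallest p, was at 159, 100.2 and 96.6 FPKM in Tsc1-KO kidneys, against 52.7, 62.3 and 95.4 FPKM in WT kidneys (log2 fold change 0.76, adjusted p = 0.188). The part of adipose RNA in the levels of the chaperones was not tested, nor was that of the clock, of whose 5 genes each was at its highest or lowest in WT replicate 3.

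**Figure D4:**
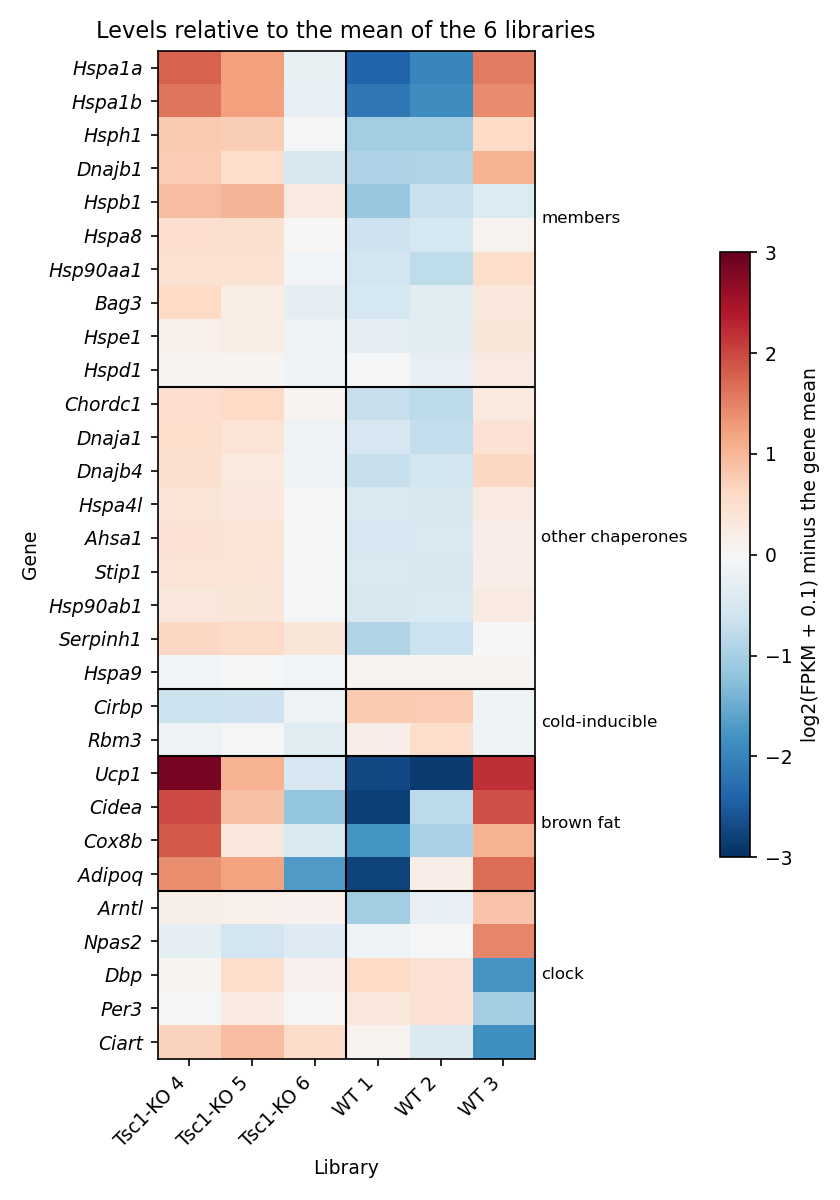
Level of each gene in each library relative to its mean over the 6 libraries, as log2(FPKM + 0.1), red above and blue below the mean, Tsc1-KO libraries left of WT libraries. Most of the 10 chaperones and the other chaperones are high in Tsc1-KO replicates 4 and 5 and WT replicate 3 and low in WT replicates 1 and 2, the brown fat genes are high in the same 3 libraries, Hspa9 is nearly flat, Cirbp runs the opposite way and each clock gene is at its highest or lowest in WT replicate 3; genes outside the 10 were chosen after their values were seen.

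Markers of other cell types were summed in each library. Of 7 intercalated cell markers, 6 were called as higher, against 1.87% of all genes, and 1 had a negative fold change. All 7 had an unadjusted p under 0.05 from limma, against 19.2% of all genes. The summed level of the 7 was 332 to 412 FPKM in Tsc1-KO and 194 to 227 FPKM in WT libraries. In this sum WT replicate 3 lay below every Tsc1-KO library. Of 7 principal cell markers, 3 were called as higher (summed level 479.6 to 520 FPKM in Tsc1-KO and 387 to 503 FPKM in WT libraries, the highest being WT replicate 3). Of 7 proximal tubule markers 0 were called, and 6 had negative fold changes. None of these marker lists held a gene at 0 in any library. Of the 76 genes tested in the lists other than those of chaperones, 14 were called, against 2.11% of all genes. Without Tsc1-KO replicate 6 it was 0, in a fit that called 0 of all 13230 genes. The part of the genes of these lists in the result for Hspb1, the one chaperone called, was not tested.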

How the data were processed

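Total kidney RNA was selected for poly A, sequenced on an Illumina HiSeq system, aligned with HISAT2 2.0.4 and counted with HTSeq 0.9.1 by the authors, per the submitters' processing notes and the study's methods. The genome build is not given in the sources used here. How reads that fit several genes were counted, and whether strand was used, is not given in the sources used here either. The authors deposited FPKM of 15302 genes, in a column for each library. Their deposited base mean columns are a signal, normalised counts averaged by group and across the series. Their fold change, log2, pval and padj columns hold their own comparison and were not used, nor were 2 further files that list the genes they took as higher or lower.

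Libraries were assigned to groups by their labels. The FPKM and base mean columns were solved for the reads behind each value (of 90140 values not above 10000 reads, 100% came within 0.02 of an integer), which gave the depths and the reads for limma-voom. Tests on log2(FPKM + 0.1) used limma 3.58.1 (R 4.3.3) on genes that averaged 0.5 FPKM or more, with genotype as the only term, empirical Bayes moderation with a variance trend, 2-sided, and Benjamini-Hochberg adjustment over 13230 genes. A fold change on this scale understates the change of low genes. The labels give separate samples but do not say that each came from its own mouse, so p-values measure only the spread between these samples, which may be technical. Alternatives were a pseudocount of 1 FPKM, no filter, a filter at 1 FPKM, median-of-ratios scaling, no variance trend, limma-voom on the recovered reads, and each library left out. Promoter windows are those of RefSeq (GRCm38.p6), and transcripts for the search of shared stretches are the longest of each gene in GENCODE. The scripts were tested on simulated data. Python 3.11.15, numpy 2.4.6, pandas 2.3.3, scipy 1.17.1 and matplotlib 3.10.9 were also used.

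The 10 genes and 23 other lists were chosen with earlier results of these data known, and lists of clock and brown fat genes were added later. The lists are 9 of chaperones and 14 of cold-inducible and immediate early genes, cell type markers and kidney injury genes. The result of 1 cell type list is not reported here. Named are the 10 genes, up to 4 called genes with the smallest p from each other list (or, where none was called, the gene with the smallest p), partners in ratios and the 5 genes most like Hspa1a and Hspa1b. Kap, Tsc1, Dbp, Arntl, Npas2, Per3, Ciart, Ucp1, Cidea, Adipoq, Rbm3, Hsf1, Chordc1, Stip1, Ahsa1, Hspa4l, Dnajb4, Atf3 and H2-Ea-ps were named after their values were seen.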

Additional observations from a re-analysis of the deposited data

How the results depend on the processing

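No paired analysis was possible because the groups share no replicate numbers (Tsc1-KO 4 to 6, WT 1 to 3). Of 130 values of the 10 chaperones under 13 alternatives, 110 kept their direction and side of the threshold, 6 lost a call (all Hspb1), 9 gained one and 5 turned their sign. Limma called 1 of the 10 with all libraries, 0 without a variance trend and 0 to 6 with 1 library left out, 6 only without WT replicate 3. Limma-voom without WT replicate 3, chosen after seeing the data, called 5. Of the other 87 chaperone genes, 1 was called at a pseudocount of 1 FPKM and 1 without a variance trend (Hspb7 both times), 0 to 16 with 1 library left out, and 12 by limma-voom without WT replicate 3. Of 76 genes of the other lists, 14 were called in all, 10 after median-of-ratios scaling, 12 by limma-voom, 8 without a variance trend, 0 to 28 with 1 library left out and 27 by limma-voom without WT replicate 3. Non-overlapping ratios numbered 1 to 6 of 7 with 1 library left out, 6 only without WT replicate 3.

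The log2 fold change of Hspd1 turned to -0.013 under median-of-ratios scaling and under limma-voom, and lay between -0.083 and 0.17 with 1 library left out. That of Nlrc4 was -0.029 at a pseudocount of 1 FPKM, and -0.094 to 1.79 with 1 library left out. The difference of log2 ratios of Dnajb1 over Dnaja1 was -0.021 at a pseudocount of 1 FPKM, -0.040 for ratios on the linear scale and -0.20 to 0.31 with 1 library left out, and that of Hsp90aa1 over Hsp90ab1 was -0.013 to 0.26 with 1 library left out. The causes were not tested. The lowest library held 150 reads of Hspa1a and 346 of Hspa1b.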

Other observations

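Of 12 immediate early genes tested, 2 were called as higher in Tsc1-KO kidneys, against 1.87% of all genes. Jun, a subunit of the transcription factor AP-1, was at 16.9, 19.5 and 14.4 FPKM in Tsc1-KO kidneys, against 7.65, 9.50 and 9.16 FPKM in WT kidneys (log2 fold change 0.94, adjusted p = 0.024 from limma). The log2 fold change of Btg2, an antiproliferative gene, was 0.82 (adjusted p = 0.0325). WT replicate 3 lay with the other WT libraries in both. Atf3, a stress-induced transcription factor that was not called, was at 4.61, 2.59 and 4.45 FPKM in Tsc1-KO kidneys, against 0.634, 0.856 and 3.33 FPKM in WT kidneys (log2 fold change 1.53, adjusted p = 0.21).

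Among the marker lists, Slc4a1, the basolateral anion exchanger of type A intercalated cells, rose by a log2 fold change of 1.25 (adjusted p = 0.00875), and Atp6v1g3, Aqp6 and Rhcg rose by 1.202, 1.19 and 0.89. Of the principal cell markers, as measured in whole kidney RNA, Scnn1b, Scnn1g and Gata3 rose by 0.66, 0.57 and 0.76. Of 6 markers of the thick ascending limb and distal convoluted tubule, Trpm6 was called (0.72), of 5 tested injury genes Spp1 (0.86), and Alas2, the 1 erythrocyte marker tested, at 0.89. Of the genes named, Trpm6 (adjusted p = 0.054) and Alas2 (adjusted p = 0.0515) were not called after median-of-ratios scaling, nor was Alas2 by limma-voom (adjusted p = 0.0602). In these lists and the immediate early genes together, 14 genes were called. Leaving out Tsc1-KO replicate 6 left 0 calls, leaving out replicate 5 or WT replicate 1 left 1 each, and leaving out Tsc1-KO replicate 4 left 6 and WT replicate 2 left 7. Over all 13230 genes these fits called 0, 24, 32, 104 and 184, in the order given, against 279 with all libraries. None of 5 endothelial, 6 macrophage and leukocyte, 4 muscle, 4 adipose, 5 urothelial and 7 proximal tubule markers was called, the smallest p of each list belonging to Tie1, C1qa, Tagln, Fabp4, Upk2 and Slc22a8. At an unadjusted p under 0.05, 3 muscle and 1 adipose marker and 0 of the other 4 lists passed, against 19.2% of all genes.

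Arntl, a clock gene, was at 2.79 to 2.89 FPKM in Tsc1-KO libraries, and at 1.18, 2.16 and 4.68 FPKM in WT replicates 1, 2 and 3, so that WT replicate 1 was also apart, on the low side. Ciart was at 8.96 to 11.7 FPKM in Tsc1-KO libraries, and at 6.54, 4.501 and 1.63 FPKM in WT replicates 1, 2 and 3.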
